A study of Mus musculus with 2 samples.

Results

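The insulin-like growth factor (IGF) genes described here are the rows for H19, Igf2, Igf2r, Airn, Igf1, Igf1r, Igf2bp1, Igf2bp2 and Igf2bp3, 9 of the 45777 gene rows of the deposited expression table. They were chosen by their symbols, with their values in both teratoma libraries already known, so every difference between the libraries below is a description and carries no test. In the E14-Sox2TA/WT teratoma library, H19 was 2.92-fold higher and Igf2, the gene beside it, was 4.13-fold lower than in the E14 teratoma library, so that the ratio of H19 to Igf2 went from 0.759 to 9.14. Both IGF receptor genes, Igf2r and Igf1r, were lower, and Airn, the RNA antisense to Igf2r, was higher. The 3 Igf2bp genes, which encode mRNA-binding proteins, were all at higher levels, Igf2bp1 by 2.55-fold.

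RNA-seq was performed on teratomas, tumors of mixed tissues that mouse embryonic stem cells (ESCs) form in a host. E14 is a wild-type mouse ESC line. E14-Sox2TA/WT was made from E14 with CRISPR/Cas9 and carries T258A, an alanine in place of the threonine at residue 258 of Sox2, on 1 allele, and it was expanded from a single cell. By the study's methods, E14 was cultured in serum and leukemia inhibitory factor. The edited clones were normally maintained with small-molecule inhibitors added to these, and were used after the inhibitors were removed. The part of this culture history in the results was not tested. Cells of either line were mixed with Matrigel and placed under the skin of BALB/c-nu mice, 3 mice per group, and the teratomas were collected 14 days later. These nude mice lack T cells but keep macrophages and other host cells, and host vessels and stroma grow into such tumors. There is 1 library per group, and it is not stated whether a library holds 1 teratoma or several. The labels give teratoma as the tissue, although the extraction protocol among them names an ESC line as the source of the RNA.

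Insulin-like growth factor 2 is a secreted growth factor of the fetus. It signals through Igf1r, a tyrosine kinase receptor that it shares with Igf1, and it is removed by Igf2r, which carries it to the lysosome for degradation. Igf2 and H19 are imprinted neighbors: Igf2 is expressed from the paternal and H19 from the maternal chromosome, and both respond to the same enhancers beyond H19, while a control region between them decides which gene those enhancers reach. Igf2r is in most mouse tissues expressed from the maternal chromosome, and Airn, a long noncoding RNA from the paternal chromosome, silences it there. The table does not separate alleles, so imprinting itself was not measured.

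The libraries held 50529171 and 49030281 reads on genes, and levels are given as TPM, the reads of a gene corrected for transcript length and rescaled to the same sum in every library. With 1 library per group no difference has a replicate check. A fold is followed in parentheses by its 95% Clopper-Pearson interval from the reads of the gene, and such intervals cover counting error only. The 4 Y-linked genes counted had 5453 reads in the E14 library, but 0 in that of E14-Sox2TA/WT, which allows up to 3. The libraries therefore differed in more than the Sox2 allele, and with 1 library each the parts of these differences in any result below cannot be told apart. Sox2 had 14585 and 8623 reads, or 246 and 130 TPM. The log2 ratio of TPM + 1 had a median of -0.06 over all genes that reached a TPM of 1 in a library and of -0.18 over the 11578 that reached 10.

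Sequences are shown first for the small RNAs that sit inside the genes of the imprinted pair. Mir675 lies in exon 1 of H19, at chr7:142577112-142577133 for the 5p product and chr7:142577078-142577099 for the 3p product, and Mir483 lies in intron 2 of an Igf2 transcript, at chr7:142654968-142654989 and chr7:142654932-142654952, all on the minus strand of GRCm38.p6. The mature sequences below are from RefSeq, and capitals mark the seed, bases 2 to 8, which pairs with target mRNAs.
miR-675-5p: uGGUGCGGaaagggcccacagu
miR-675-3p: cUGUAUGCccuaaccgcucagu
miR-483-5p: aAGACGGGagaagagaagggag
miR-483-3p: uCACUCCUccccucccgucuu
No seed is shared between these 4 products. The libraries were made from polyA RNA, and the Mir675 row held 3 and 4 reads and the Mir483 row 2 and 0 reads in the E14 and E14-Sox2TA/WT libraries, so the mature products were not measured here.

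Promoter windows are shown for the genes of the opposed pairs, as the 250 bases before a RefSeq start on GRCm38.p6. Capitals mark GGGCGG, the core of a GC box, and TATAAA, found near some starts as a site for the general transcription machinery, on either strand. The Igf2 window is the one before the most downstream of its 4 starts, at chr7:142657497-142657746 on the minus strand. The Igf2r window is at chr17:12769707-12769956 on the minus strand, and the Airn window is at chr17:12741061-12741310 on the plus strand, inside the Igf2r gene.
Igf2: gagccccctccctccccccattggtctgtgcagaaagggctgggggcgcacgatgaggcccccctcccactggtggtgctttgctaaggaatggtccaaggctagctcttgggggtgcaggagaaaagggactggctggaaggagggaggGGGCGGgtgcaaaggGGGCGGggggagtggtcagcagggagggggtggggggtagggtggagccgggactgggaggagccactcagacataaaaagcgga
Igf2r: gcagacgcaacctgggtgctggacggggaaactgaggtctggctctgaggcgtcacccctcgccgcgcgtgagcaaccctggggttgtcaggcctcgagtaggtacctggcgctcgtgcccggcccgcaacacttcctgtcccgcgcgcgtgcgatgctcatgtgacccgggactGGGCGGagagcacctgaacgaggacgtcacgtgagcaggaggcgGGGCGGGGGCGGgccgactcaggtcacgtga
Airn: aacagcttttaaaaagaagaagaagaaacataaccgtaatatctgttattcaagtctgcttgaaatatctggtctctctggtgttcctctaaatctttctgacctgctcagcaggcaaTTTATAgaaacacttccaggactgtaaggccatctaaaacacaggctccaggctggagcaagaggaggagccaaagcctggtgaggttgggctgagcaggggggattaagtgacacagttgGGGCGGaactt
GGGCGG occurred 2 times before Igf2, 3 times before Igf2r and 1 time before Airn, and 32.7% of all 32851 RefSeq windows of this length hold it on either strand. TATAAA occurred before Airn alone of the 3, on the opposite strand, and 12.4% of all windows hold it. The Igf2r window held 27 CG dinucleotides, the Igf2 window 6 and the Airn window 2, where the median over all windows was 6. ACAATG and ACAAAG, hexamers of the kind that Sox proteins bind, were each found in 1 of the 10 windows of 7 member genes, before another Igf2 start and before Igf1 respectively. They occur in 10.7% and 16.5% of all windows. H19 and Igf2bp1 are the members for which no window was used.

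The last set of sequences comes from the Igf2bp mRNAs, which are well-known targets of the let-7 microRNAs. The let-7a-5p sequence from RefSeq is given with its seed in capitals, a seed found in 11 mature microRNA names, and below it are the 30-base stretches of each 3′ UTR that hold the complement CTACCTC, in capitals.
let-7a-5p: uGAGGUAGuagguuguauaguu
Igf2bp1 site, chr11:95961778-95961807: aggcagtgctgtgcgaagtaaaCTACCTCa
Igf2bp1 site, chr11:95959357-95959386: tgggaaccagcagtgctattaaCTACCTCa
Igf2bp1 site, chr11:95958763-95958792: actacgagtataaatggatgaaCTACCTCa
Igf2bp1 site, chr11:95958140-95958169: ctgtttcacttttggttttaatCTACCTCt
Igf2bp2 site, chr16:22059473-22059502: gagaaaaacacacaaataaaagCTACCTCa
Igf2bp3 site, chr6:49086787-49086816: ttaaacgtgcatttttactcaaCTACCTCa
The sites are on the minus strand of GRCm38, in the transcript with the longest 3′ UTR of each gene in GENCODE. Igf2bp1 held 4 matches in a 3′ UTR of 6337 bases, and 33.7% of the 564 genes with a 3′ UTR within 20% of that length hold at least 1. Igf2bp2 and Igf2bp3 held 1 match each, and 12.0% and 13.3% of 3′ UTRs of like length hold at least 1. Igf1r held 2, Igf2r and Igf1 held 1 each, and Igf2 held 0. The seed of miR-675-5p had no match in the 3′ UTR of the 7 protein-coding members. That of miR-675-3p had 2 matches in Igf1r alone, where 37.2% of 3′ UTRs of like length hold at least 1. These matches describe letters, not binding.

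On the TPM scale, the growth factor gene and the noncoding RNA beside it had the largest ratios of the 9 genes. H19 (NCBI gene 14955, chr7:142575530-142578146, minus strand) is a spliced noncoding RNA that is abundant in embryonic mesoderm and endoderm. The E14 library had 46496 reads of it, or 845 TPM, and the E14-Sox2TA/WT library had 151379, or 2463 TPM. That is 2.92-fold higher (2.89 to 2.95), and H19 moved from rank 146 to rank 48 among all genes by TPM.

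Igf2 (NCBI gene 16002, chr7:142650768-142666816, minus strand) went the other way. The E14 library had 103058 reads of it, or 1113 TPM, and the E14-Sox2TA/WT library had 27291, or 269 TPM. The level was 4.13-fold lower (4.08 to 4.19), and the rank went from 118 to 497. Igf2 was the most abundant of the 9 genes in the E14 library and came next after H19 in the other.

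**Figure D1:**
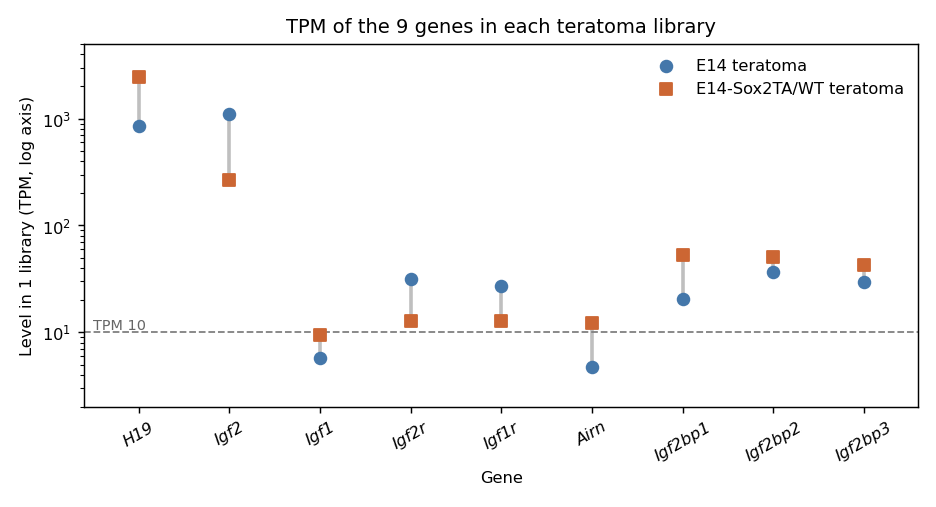
TPM of each gene (log axis) in the E14 teratoma library (circles) and the E14-Sox2TA/WT teratoma library (squares), 1 library each, with the dashed line at a TPM of 10. H19 and Igf2 stand far above the other 7 genes in both libraries and cross, from 845 and 1113 to 2463 and 269.

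Since both genes lie on chromosome 7 within 72.6 kb of each other and answer to shared enhancers, they were also read against each other within each library, which takes out library size and any scaling common to all genes. The ratio of H19 to Igf2 in TPM was 0.759 in the E14 library but 9.14 in that of E14-Sox2TA/WT, a 12.1-fold change, or 12.3-fold in reads. H19 held 31.1% (30.9 to 31.3) of the reads of the pair in the former and 84.7% (84.6 to 84.9) in the latter. The summed level of the pair differed less, at 1958 and 2732 TPM. In bulk tissue, fewer cells of a type and less RNA per cell cannot be told apart.

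Igf2os, a noncoding RNA on the opposite strand, overlaps 98 exonic bases of Igf2 and had 1339 and 255 reads. Whether reads were counted by strand is not stated, so reads on those bases cannot be assigned, and the Igf2os level is uncertain. No exonic base is shared by H19 and Igf2.

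Igf2r (NCBI gene 16004, chr17:12682406-12769706, minus strand) encodes the receptor that clears Igf2 and sorts lysosomal enzymes. Its 6838 reads in the E14 library came to 31.8 TPM, and its 3080 reads in the other to 12.8 TPM, 2.48-fold lower (2.38 to 2.59). Airn (NCBI gene 104103, chr17:12741311-12859884, plus strand) starts inside Igf2r and runs out past its 5′ end, with 28.4 kb of overlap. It had 78 reads and 4.75 TPM in the E14 library and 297 reads and 12.3 TPM in the other, 2.60-fold higher (2.02 to 3.38). Airn thus rested on far fewer reads than any other member, and its difference depended on the unit, since by reads scaled to the library total it was 3.92-fold higher. No annotated exonic base is shared by Igf2r and Airn, but unspliced RNA of either gene could give reads in the other where strand is not used.

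**Figure D2:**
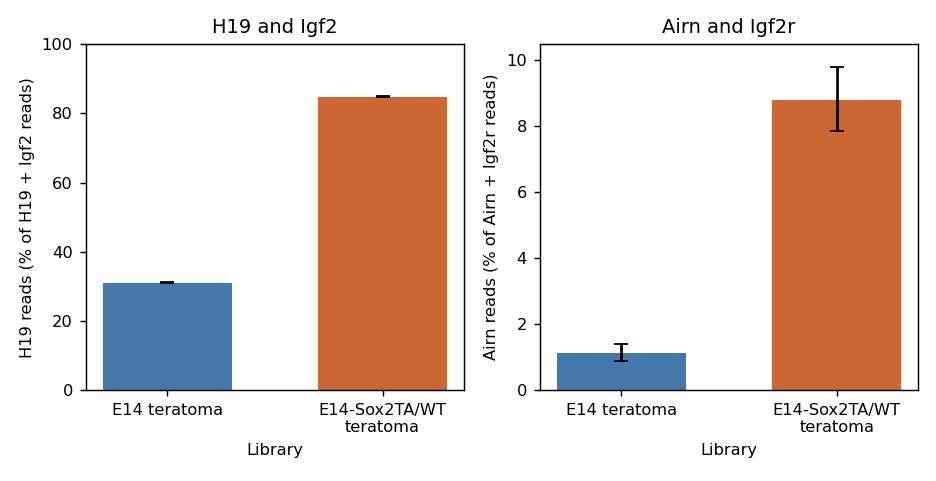
Share of reads, in percent, that H19 holds of the H19 and Igf2 reads (left) and that Airn holds of the Airn and Igf2r reads (right) in each library, with 95% Clopper-Pearson intervals as bars on different axes. H19 goes from 31.1% to 84.7% and Airn from 1.13% to 8.79% of its pair.

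Within the Igf2r pair, Airn held 1.13% (0.892 to 1.41) of the reads in the E14 library against 8.79% (7.86 to 9.80) in the other. The ratio of Airn to Igf2r in TPM went from 0.149 to 0.961. In both pairs the noncoding RNA was at the higher and the protein-coding gene at the lower level in the E14-Sox2TA/WT library.

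Igf1 and Igf1r belong to the same pathway but are not imprinted in the mouse. Igf1 (NCBI gene 16000, chr10:87858265-87937047), the growth factor of the postnatal growth hormone axis, had 988 reads and 5.79 TPM in the E14 library, against 1812 reads and 9.48 TPM in the other. The level was 1.64-fold higher (1.51 to 1.77). Igf1 stayed below 10 TPM in both. Against Igf2 it was minor in either tumor, with 192 Igf2 transcripts to each Igf1 transcript in the E14 library against 28.4 in the other.

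Igf1r (NCBI gene 16001, chr7:67952257-68233668) encodes the signalling receptor for both growth factors. It had 7870 reads and 27.3 TPM in the E14 library, against 4116 reads and 12.8 TPM in the other, 2.14-fold lower (2.06 to 2.22). With reads scaled to the library total it was 1.86-fold lower, under the 2-fold limit. The ratio of Igf1r to Igf2r was 0.859 and 0.996. Both receptors were lower, Igf2r somewhat more so, at 2.48-fold (2.38 to 2.59), an interval that does not overlap that of Igf1r.

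The 3 Igf2bp genes encode RNA-binding proteins named for their binding to Igf2 mRNA, which are abundant in embryonic tissue. Of them, Igf2bp1 and Igf2bp3 are mostly silent in the adult. Igf2bp1 (NCBI gene 140486, chr11:95957163-96005944) had 4182 reads and 20.7 TPM in the E14 library, against 11930 reads and 53.0 TPM in the other, 2.55-fold higher (2.47 to 2.65). Igf2bp2 (NCBI gene 319765, chr16:22059009-22163299) had 3480 and 5258 reads, at 37.1 and 50.2 TPM, a ratio of 1.35 (1.30 to 1.41). Igf2bp3 (NCBI gene 140488, chr6:49085218-49215469) had 3111 and 4912 reads, at 29.8 and 42.3 TPM, a ratio of 1.42 (1.35 to 1.48). Of the 3, Igf2bp1 differed most. Their summed level went from 87.6 to 145 TPM. Igf2bp1 made up 23.7% of that sum in the E14 library and 36.4% in the other, while Igf2bp2 went from 42.3% to 34.5% and Igf2bp3 from 34.0% to 29.1%.

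The order of the 9 levels differed between the libraries. In the E14 library it ran from Igf2 through H19, Igf2bp2, Igf2r, Igf2bp3, Igf1r and Igf2bp1 to Igf1 and Airn, and only the counting intervals of Igf1 (5.44 to 6.16 TPM) and Airn (3.75 to 5.93 TPM) overlapped between neighbors in that order. In the E14-Sox2TA/WT library it ran from H19 through Igf2, Igf2bp1, Igf2bp2, Igf2bp3, Igf2r, Igf1r and Airn to Igf1. There the intervals of Igf2r (12.4 to 13.3 TPM), Igf1r (12.4 to 13.2 TPM) and Airn (11.0 to 13.8 TPM) overlapped. The Igf2bp genes thus stood among the receptors in the E14 library but above both of them in the other.

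A rule for differentially expressed genes taken from the text of the study's methods and applied to the deposited TPM, a fold change above 2 where either library reached a TPM of 10, could be applied to 8 of the 9 genes. It called H19, Airn and Igf2bp1 higher, where 10.8% of the 11578 genes tested were called higher, and Igf2, Igf2r and Igf1r lower, where 18.7% were called lower. Airn reached 10 TPM only in the library where it was high, so higher was the only call open to it. In either direction 6 of the 8 were called, against 29.5% of all genes. By FPKM, in which every ratio is 1.15 times that of TPM, the same 3 genes were past 2-fold in the higher direction, with 13.7% of all genes, and Igf2 and Igf2r in the lower, with 14.3%. Nothing is read from these shares, because the genes were chosen with these values known.

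Other genes of the pathway were taken from lists. The IGF binding proteins, which carry the growth factors outside cells and set their access to receptors, went in both directions. Of 9 genes, 7 could be tested, of which 2 were called higher and 2 lower, or 3 and 1 by FPKM. Over all genes, 10.8% were called higher and 18.7% lower by TPM, and 13.7% and 14.3% by FPKM. Igfbp6, which prefers Igf2 as its ligand, went from 102 to 1098 reads and from 3.26 to 31.7 TPM, and Igfbp7 from 109 to 227 TPM. Igfbpl1 went from 70.4 to 16.3 TPM and Igfbp5, abundant in muscle and bone, from 378 to 179 TPM. The most abundant carrier, Igfbp2, had 839 and 764 TPM, Igfbp3 had 144 and 177 TPM, and Igfbp4 had 88.5 and 175 TPM. Igfbp1 had 24 and 114 reads, and Igfals, the liver subunit of the circulating IGF complex, had 0 and 58 reads. The median log2 ratio of the list was 0.63, against -0.06 over all genes, and its summed level was 1633 and 1574 TPM.

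Of the proteases that cut the binding proteins and their inhibitors, 2 of 6 genes could be tested. Htra1, a secreted serine protease, was called higher, at 9.40 and 27.9 TPM, and Stc2, an inhibitor of the pappalysins, had 12.0 and 9.53 TPM. The shares over all genes were 10.8% called higher and 18.7% lower. Insulin family genes were at low levels or not detected. Insr, the insulin receptor, had 14.3 and 7.41 TPM and was the single gene tested. Ins1 and Ins2 had 0 reads in both libraries, Rln1 had 0 and 43 reads, Insrr 51 and 44, Insl3 10 and 5, and Insl6 69 and 69.

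Genes that carry the receptor signal inside the cell were, where called, called lower. Of 23 docking and signal transduction genes 21 could be tested. Of these, 0 were called higher, against 10.8% of all genes, and 7 were called lower, or 33.3%, against 18.7%. By FPKM, 5 were called lower, against 14.3% of all genes. Grb10, an imprinted adaptor that restrains insulin and IGF receptors, went from 94.9 to 18.0 TPM, and Pik3r3, a regulatory subunit of PI3-kinase, from 68.5 to 21.7 TPM. Pik3r1, Pik3r2, Tsc1 and Mtor were also called lower. Akt1 was the most abundant of the list, at 209 and 114 TPM. The median log2 ratio was -0.48.

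**Figure D3:**
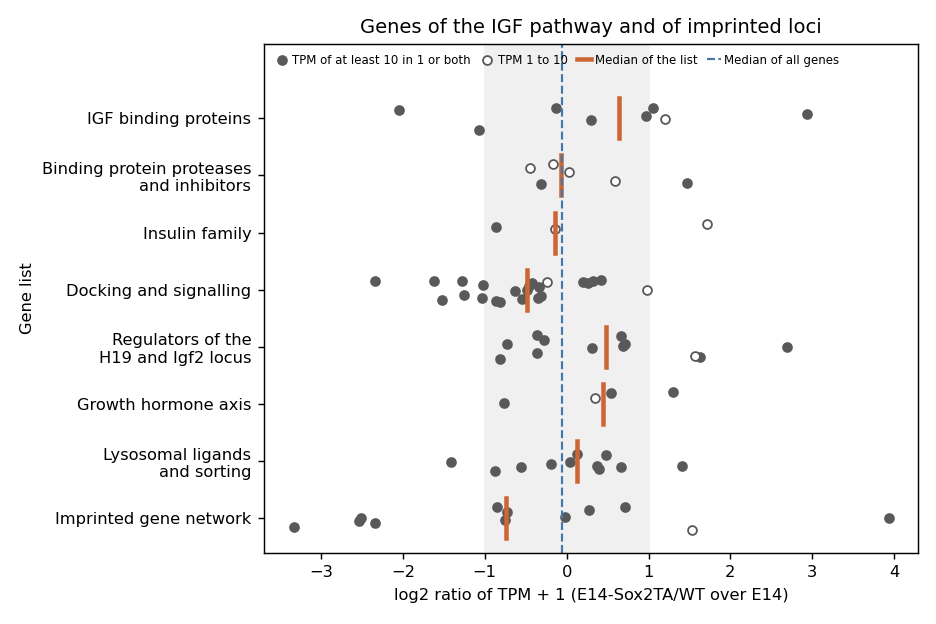
log2 ratio of TPM with 1 added, E14-Sox2TA/WT over E14, for each gene of the 8 pathway lists with a TPM of at least 1 in 1 library (filled where it reached 10), with list medians as bars, the median of all genes as the dashed line and a 2-fold change as the shaded band. IGF binding proteins lie on both sides of the band, docking and signalling genes outside it lie on the lower side, and Slc38a4 is the rightmost point, in the imprinted network.

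Regulators of the H19 and Igf2 locus are proteins that bind or keep the methylation of imprinting control regions, or act on either gene. Of 12 genes 11 could be tested, with 2 called higher (18.2%, against 10.8% of all genes) and 0 lower (against 18.7%), and the median log2 ratio was 0.49. Dppa3, which protects imprints in the zygote, went from 5.30 to 39.6 TPM, and Hmga2, a chromatin protein upstream of Igf2 and Igf2bp2, from 18.6 to 59.8 TPM. Trim28 was the most abundant, at 213 and 351 TPM. Ctcf, the insulator protein of the control region, had 77.2 and 59.9 TPM, and its germline paralog Ctcfl had 0 and 171 reads. Dppa3 is also a gene of undifferentiated ESCs, whose markers are given below.

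In the growth hormone axis, 3 of 6 genes could be tested and Ghr, the growth hormone receptor, was called higher, at 8.70 and 23.0 TPM. Socs2, a feedback inhibitor, had 28.1 and 41.3 TPM and Stat5b had 14.9 and 8.34 TPM. Among 11 lysosomal enzymes and sorting genes that share a route with Igf2r, Ctsl was called higher, at 121 and 322 TPM, and Gnptab, which makes the mannose phosphate tag that Igf2r binds, was called lower, at 37.5 and 13.5 TPM. Ctsd was the most abundant, at 470 and 515 TPM. The remaining 9 were not called, and the median was 0.13. For both lists, the shares over all genes were 10.8% called higher and 18.7% lower.

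H19 and Igf2 belong to a network of imprinted genes that are expressed together in fetal tissue. Of its other 12 genes 11 could be tested, with 1 called higher (9.09%, against 10.8% of all genes) and 4 lower (36.4%, against 18.7%), and the median log2 ratio was -0.74. Like Igf2, Dlk1 went from 249 to 23.8 TPM, Ndn from 1012 to 174 TPM, Cdkn1c from 149 to 25.2 TPM, and Grb10 is given above. Dlk1 and Igf2 are paternally expressed growth promoters, while Cdkn1c is a maternally expressed cell cycle inhibitor. Slc38a4, an amino acid transporter of placenta and liver, went from 6.89 to 119 TPM, 17.4-fold higher (16.0 to 18.8). Mest had 397 and 482 TPM, and Peg3 had 196 and 194 TPM. The called genes therefore included maternally and paternally expressed genes at lower levels. Over all 84 genes of the 8 lists, 65 could be tested, with 8 called higher (12.3%) and 13 lower (20%), shares near those of all genes, 10.8% and 18.7%. By FPKM, 9 were higher and 10 lower, where the shares of all genes were 13.7% and 14.3%. Igfbp6, Htra1, Dppa3, Ghr and Slc38a4 reached 10 TPM only in the E14-Sox2TA/WT library, so higher was the only call open to them. Tsc1 reached it only in the E14 library, so lower was the only call open to it.

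Genes around both imprinted pairs were read by position, from RefSeq on GRCm38, to see whether the differences ran along the chromosome. Within 500 kb of H19 and Igf2 there were 52 other gene rows, of which 21 had at least 10 reads in a library, and of these 8 had a higher and 13 a lower TPM in the E14-Sox2TA/WT library. Of the 10 that could be tested, Lsp1 was called higher, at 14.8 and 43.8 TPM, and 4 were called lower, against 10.8% and 18.7% of all genes. These were Dusp8 at 48.5 and 7.24 TPM, Tnni2 at 34.2 and 14.1 TPM, Igf2os at 11.6 and 1.98 TPM and R74862 at 11.1 and 2.71 TPM. Of these, Dusp8, Igf2os and R74862 reached 10 TPM only in the E14 library, so lower was the only call open to them. Tnni2 encodes a troponin of fast skeletal muscle and Lsp1 a protein of leukocytes. The median log2 ratio of the neighbors was -0.25, and that of chromosome 7 was -0.17.

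**Figure D4:**
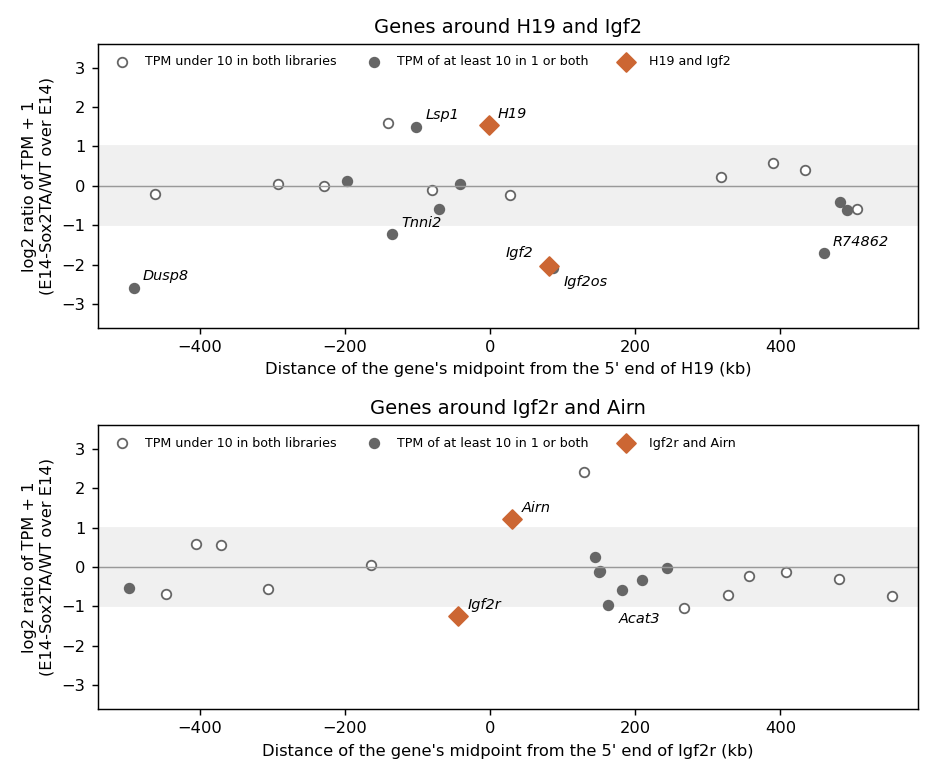
log2 ratio of TPM with 1 added, E14-Sox2TA/WT over E14, against the distance in kb of each gene's midpoint from the 5′ end of H19 (top) or Igf2r (bottom), for genes with at least 10 reads in a library, filled where the TPM reached 10. In each panel, a gene whose midpoint lies beyond the axis is not shown. H19 lies above and Igf2 below the shaded band of a 2-fold change, as do Airn and Igf2r in the lower panel, and most of the other genes lie inside it.

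Within 500 kb of Igf2r and Airn, 21 of 43 other rows had at least 10 reads, 5 of them with a higher and 16 with a lower TPM, or 9 and 12 by FPKM. Of the 8 that could be tested, Acat3 was called lower by TPM, but not by FPKM, at 22.5 and 11.0 TPM. The shares of all genes called lower were 18.7% by TPM and 14.3% by FPKM. Pnldc1, chosen after its values were seen, had 73 and 495 reads but stayed below 10 TPM. Slc22a3, which Airn silences in placenta, had 199 and 122 reads. The median of the neighbors was -0.33, and that of chromosome 17 was -0.12.

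Among all genes, those nearest to H19 by their levels, as the distance over both libraries in log2 with 1 added to each TPM, were Npm1, at 866 and 2482 TPM, the mitochondrial tRNA gene TrnS1 and Rps3a3. Nearest to Igf2 were Tubb2a, at 1447 and 304 TPM, Maged1 and Tecr. With 2 values per gene, such nearness describes levels only.

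Cell type markers differed between the libraries along with the IGF genes, and in bulk tumor RNA their part in the results above was not tested. Markers of visceral endoderm and liver, tissues in which H19 and Igf2 are known to be abundant, summed to 29.6 TPM in the E14 library against 482 TPM in the other. Of the 12 genes on this list, 9 could be tested and all 9 were called higher, against 10.8% of all genes. Only 1 gene of this list reached 10 TPM in the E14 library and 9 did in the other, so most entered the rule through the library in which they were high, and the count is largely fixed by it. Afp was at 0.614 and 151 TPM, and Apoa2 had 0 reads in the E14 library. Fibroblast and mesenchyme markers summed to 720 and 1755 TPM, with 6 of 10 called higher, against 10.8% of all genes, and all 12 at a higher level. Of the 10, 8 reached 10 TPM in the E14 library. Thy1 and Dpt reached it only in the other, so higher was the only call open to them. Skeletal muscle markers, of a tissue that also expresses H19 and Igf2, summed to 355 and 194 TPM. Of these, 4 of 8 were called lower, against 18.7% of all genes, or 3 by FPKM, against 14.3%. All 8 reached 10 TPM in the E14 library, but only 4 in the other. Cartilage markers summed to 166 and 154 TPM, with 1 of 5 called lower, against 18.7% of all genes. The called gene was Sox9, at 44.1 and 16.9 TPM. Of the 15 cartilage markers, 7 were higher and 8 lower by TPM, and 9 and 6 by FPKM. Col2a1, the most abundant of them, had 58.0 and 74.8 TPM. Matn1 had 0 and 46 reads and Snorc had 0 and 9 reads in the E14 and E14-Sox2TA/WT libraries.

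Markers of undifferentiated ESCs, cells in which Igf2bp1 is known to be expressed, summed to 341 and 2129 TPM. Of these, 11 of 12 were called higher, against 10.8% of all genes. Only 3 reached 10 TPM in the E14 library but 12 in the other, and Dppa5a was at 29.1 and 1144 TPM. Neuronal markers summed to 3461 and 554 TPM, and Tubb3 was at 1722 and 170 TPM. Of these, 11 of 12 were called lower, against 18.7% of all genes, or 10 by FPKM, against 14.3%. Macrophage markers summed to 1026 and 1732 TPM, with 3 of 11 called higher, against 10.8% of all genes. Of these 3, Mrc1 and Cd14 reached 10 TPM only in the E14-Sox2TA/WT library, so higher was the only call open to them. Endothelial markers summed to 123 and 134 TPM, with 0 of 4 called, against 29.5% of all genes in either direction. Trophoblast markers were low, at a sum of 4.71 and 37.9 TPM. Tpbpa, Gcm1, Prl3d1, Prl2c2, Hand1 and Ctsq had 0 reads in the E14 library, while no gene of the list was without reads in the other. Plac1, the single gene tested, had 11 and 449 reads. It reached 10 TPM only in the E14-Sox2TA/WT library, so higher was the only call open to it. Genes of several tissues were thus present in both libraries, in different amounts.

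**Figure D5:**
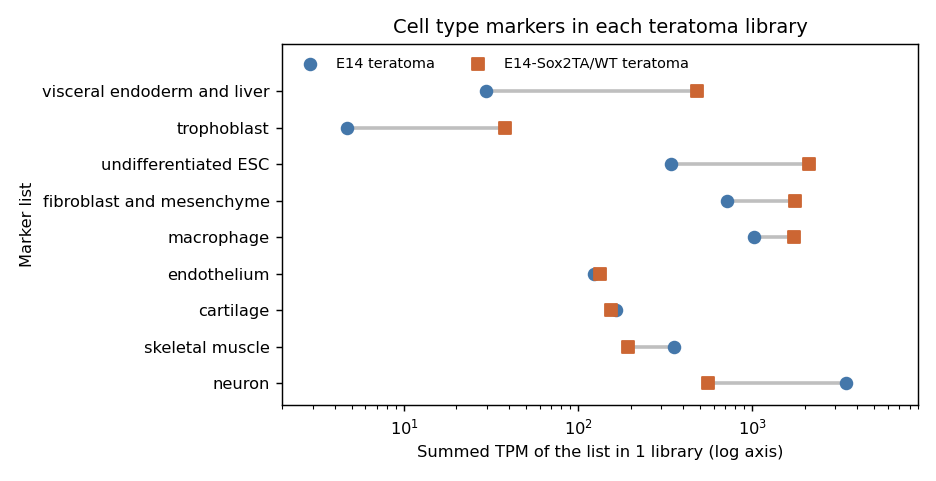
Summed TPM (log axis) of each marker list in the E14 teratoma library (circles) and the E14-Sox2TA/WT teratoma library (squares). The visceral endoderm and liver sum goes from 29.6 to 482 and the undifferentiated ESC sum from 341 to 2129, while the neuron sum goes from 3461 to 554 and the endothelium sum from 123 to 134.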

How the data were processed

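RNA-seq of 1 E14 and 1 E14-Sox2TA/WT teratoma library was analyzed. The authors deposited raw read counts per gene, FPKM (reads per length and library size) and TPM (the same rescaled to a fixed sum) for 45777 genes on mm10. The submitters' processing notes name bcl2fastq 2.20.0, Trimmomatic, HISAT2 2.1.0 and StringTie 2.1.3b, and the strand setting is not given in the sources used here.

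The ratio of the deposited TPM was computed per gene, and a gene was called at a fold above 2 where either library reached a TPM of 10, as in the study's methods. No p-value was computed with 1 library per group. Counting intervals are 95% Clopper-Pearson or, for single levels, exact Poisson intervals, and a count of 0 allows 3 reads. List medians used genes with a TPM of at least 1, with 1 added to each TPM. Of 45777 NCBI identifiers, 45679 matched RefSeq on GRCm38.p6, the same build, which gave positions, promoters and microRNAs. GENCODE vM21 gave exons and 3′ UTRs. For 7 of the 9 members a promoter window was used.

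The members and gene lists were chosen with earlier results of these data known. Named are all members, all IGF binding protein and insulin family genes with at least 10 reads, the most abundant gene and the 2 with the largest ratio of every other list, called neighbors, and the 3 genes nearest to H19 and to Igf2, with marker lists given mainly as sums. Further genes named in a list (Pik3r1, Pik3r2, Tsc1, Mtor, Ctcf, Ctcfl, Cdkn1c, Mest, Peg3, Slc22a3, Pnldc1 and markers at 0 reads) were added after their values were seen. A gene of these lists is not reported here by name. Alternatives were FPKM, reads scaled by library total, by edgeR 4.0.16 TMM factors or by DESeq2 1.42.0 size factors, TPM without mitochondrial and hemoglobin genes, centring, pseudocounts, thresholds and filters. The scripts were tested on simulated data and ran in Python 3.11.15 and R 4.3.3.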

Additional observations from a re-analysis of the deposited data

How the results depend on the processing

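H19 stayed higher and Igf2 lower, and both stayed past 2-fold, in every alternative scaling and pseudocount tried. The H19 log2 ratio was 1.54 with TPM, 1.74 with FPKM, 1.75 with read counts scaled by library total, 1.62 with TMM factors, 1.62 with DESeq2 size factors, 1.61 without mitochondrial and hemoglobin genes and 1.73 centred on the median of all genes, which was -0.19. In the same order the Igf2 log2 ratio was -2.05, -1.85, -1.87, -2.00, -2.00, -1.98 and -1.86. For the other 7 genes, none of 56 alternative values changed sign, though 38 moved by more than counting error, and Igf1r was under 2-fold with FPKM, library totals and centring. With a fold above 3, 0 members were called higher and 1, Igf2, lower. Of the pathway genes, where 8 were called higher and 13 lower, 14 and 23 were at a fold above 1.5 and 4 and 6 above 3, since those limits are wider or narrower. Higher genes numbered 15 without a filter on TPM and 13 with a TPM of at least 1, which let more genes be tested. No paired analysis was possible because each group has 1 library. Depth limited Airn, whose interval came closest to 2-fold.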
